A study of Homo sapiens with 6 samples.

Results

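Tubulin mRNAs were followed in RNA immunoprecipitation sequencing (RIP-seq) of WaGa cells, a method that sequences the RNA an antibody pulls down from lysed cells. The set comprised 10 of the 60655 genes in the count table, taken by gene name: the α-tubulin genes *TUBA1A*, *TUBA1B* and *TUBA1C*, the β-tubulin genes *TUBB*, *TUBB2A*, *TUBB2B*, *TUBB3*, *TUBB4B* and *TUBB6*, and the γ-tubulin gene *TUBG1*. All were found. The set was built around *TUBA1B*, which was known to pass the enrichment thresholds when IGF2BP3 IP was set against IgG IP, so that its values in this comparison, and those of its relatives, are given as a description and not as evidence of enrichment. WaGa is an established Merkel cell carcinoma (MCC) line that carries Merkel cell polyomavirus. The cells were of wild-type genotype and untreated in both groups. The groups were 3 libraries from IP with an antibody against IGF2BP3 (IMP3 in the labels) and 3 from IP with control IgG, with replicates numbered 1 to 3 in each group and described as independent. An input library was not analysed here, so each value is a share of what came down in an IP, and in bulk lysate more cells with an RNA and more of that RNA per cell cannot be told apart.

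Microtubules are hollow polymers of heterodimers of α- and β-tubulin, and γ-tubulin, in a ring complex with the GCP proteins, starts their growth. Vertebrates carry several genes for each type, whose proteins differ mostly in the acidic C-terminal tail, the part that modifying enzymes and many microtubule-binding proteins act on. Cells also adjust the stability of α- and β-tubulin mRNAs to the pool of free tubulin, through a ribosome-associated factor, TTC5, that reads the first residues of the nascent chain. IGF2BP3 is an RNA-binding protein of the IMP family that affects the stability, localization and translation of the mRNAs it binds.

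The libraries held 9758759 to 14886414 counts on genes. Normalized CPM are these counts scaled to library size after TMM normalization. TPM are the transcript levels per length that the authors estimated. In either group replicate 1 was unlike replicates 2 and 3, with a chi-square per degree of freedom of 18.2 to 22 for pairs with replicate 1 against 2.19 and 3.25 for the pairs without it. Of 10 MCC markers, 9 were above 1 TPM in every library and *NEUROD1* was below it. None of 9 markers of fibroblasts, leukocytes, keratinocytes, melanocytes or endothelium was above 1 TPM in every library, and their summed TPM was 0.82 to 0.94 in IgG IP and 0.65 to 1.75 in IGF2BP3 IP.

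Some genes of the set are close copies, while pairs of different type (α, β or γ) were identical at only 55.4% to 61.8% of aligned coding bases. The coding sequences of *TUBA1A*, *TUBA1B* and *TUBA1C* were identical at 96.3% to 97.3% of aligned bases, and *TUBA1B* shared an unbroken run of 326 identical bases with *TUBA1C* and of 221 with *TUBA1A*. *TUBB2A* and *TUBB2B* were the closest pair, at 98.1%, with a run of 725 bases. All other β-tubulin pairs were at 81.3% to 88.7%. *TUBB* was the most distant of the β-tubulin genes, at 81.3% to 84.9% to the other 5. The ends of the coding sequences, which encode the C-terminal tails, are given for this closest pair, each as the last 60 coding bases including the stop codon, 5′ to 3′ on the coding strand, with GRCh38 coordinates of GENCODE version 44. Capitals mark bases of *TUBB2A* that differ from *TUBB2B* in a pairwise alignment of the coding sequences.
TUBB2B (chr6:3224751-3224810, minus strand): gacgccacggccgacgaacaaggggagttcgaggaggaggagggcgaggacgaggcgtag
TUBB2A (chr6:3153863-3153922, minus strand): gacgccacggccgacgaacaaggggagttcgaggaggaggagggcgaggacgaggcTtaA
*TUBB2A* differed from *TUBB2B* at 2 bases, both in the last 2 codons.

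The starts of the coding sequences, which encode the residues that tubulin mRNA autoregulation reads, are shown for a gene of each type as the first 24 coding bases of the spliced canonical transcript, with the first 4 codons in capitals.
TUBA1B: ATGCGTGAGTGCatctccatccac
TUBB: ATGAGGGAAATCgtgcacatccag
TUBB2B: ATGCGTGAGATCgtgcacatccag
TUBG1: ATGCCGAGGGAAatcatcacccta
The first 4 codons were the same in the 3 α-tubulin genes. The 6 β-tubulin genes had 4 different versions in bases: *TUBB* shared its own with *TUBB4B*, *TUBB3* shared one with *TUBB6*, and *TUBB2A* and *TUBB2B* each had their own. All 4 versions encode the same residues, Met-Arg-Glu-Ile, so the β-tubulin genes differ here in codons only. *TUBG1* opens with other codons.

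Reads of 150 bases, the length sequenced, can lie wholly in a stretch that a gene shares with another. For *TUBB2A* 48.7% of all 150-base windows of the canonical transcript occurred letter for letter in a transcript of a gene at another locus, and for *TUBB2B* 41.6%, nearly all of them shared between this pair. For *TUBA1B* the share was 19.1%, of which 12.0% of windows were shared with *TUBA1C* and 7.2% with *TUBA1A*. It was 7.0% for *TUBA1A*, 6.6% for *TUBA1C*, 6.2% for *TUBG1* (with *TUBG2*), 2.7% for *TUBB* (with the pseudogene *TUBBP1*) and 2.3% for *TUBB3*. No such window was found for *TUBB4B* and *TUBB6*. The canonical transcripts of the α- and β-tubulin genes each have 4 exons and that of *TUBG1* has 11, and their GC content ran from 50.2% in *TUBA1C* to 62.2% in *TUBB3*.

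The level of the tubulin genes in the IgG IP, the background of the assay, spanned from under 1 TPM to 999 TPM. *TUBB* was highest (999 ± 176 TPM, SD, n = 3), followed by *TUBA1B* with 430 ± 23.0 TPM. *TUBB2B* (272 ± 39.6 TPM) and *TUBA1A* (268 ± 62.3 TPM) came next and overlapped between libraries. *TUBB4B* was at 142 ± 5.56 TPM, *TUBB3* at 94.9 ± 17.4, *TUBA1C* at 47.8 ± 4.51 and *TUBG1* at 33.9 ± 2.66. *TUBB2A* reached 2.83 ± 1.48 TPM and *TUBB6* 0.37 ± 0.25 TPM, and *TUBB6* had 3 to 8 counts per library and did not pass the filter on low counts. *TUBB2B* and *TUBA1A* were the only neighbours in this order whose IgG IP libraries overlapped. Ordered by counts per kilobase of the canonical transcript, 6 of the 10 genes kept their rank: *TUBB2B* and *TUBA1A* changed places, *TUBB3* moved from rank 6 to rank 8 and *TUBG1* from rank 8 to rank 6. In the IGF2BP3 IP the order by TPM began in the same way, with 1288 ± 167 TPM for *TUBB* and 891 ± 37.7 TPM for *TUBA1B*. Together the 10 genes held 0.324% to 0.347% of the counts of the IgG IP libraries and 0.425% to 0.456% of those of the IGF2BP3 IP libraries.

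**Figure D1:**
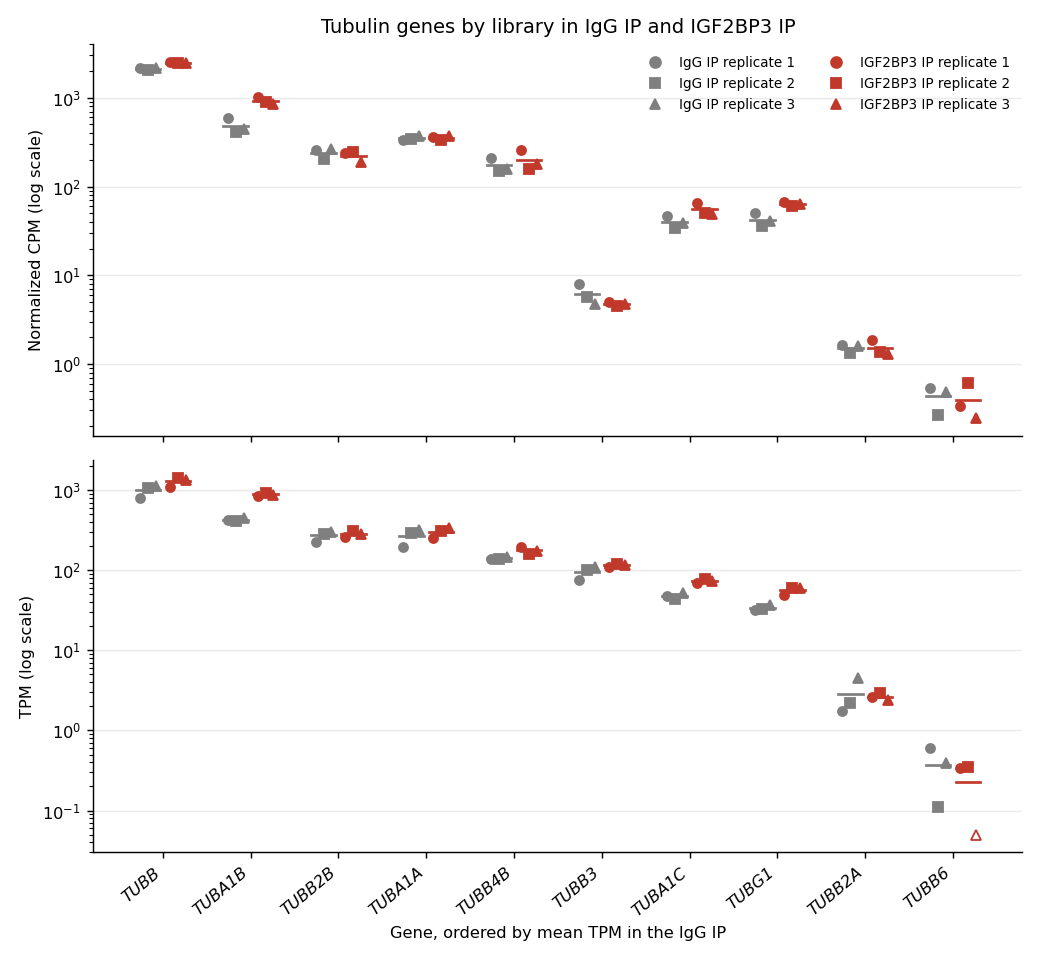
Normalized CPM (top) and TPM (bottom) of the 10 tubulin genes in each library, on log axes, with IgG IP in grey, IGF2BP3 IP in red, a symbol for each replicate and a line at the group mean. The open triangle marks *TUBB6* in IGF2BP3 IP replicate 3, listed at 0 TPM and drawn at the bottom of the panel, since 0 has no place on a log axis; the red *TUBA1B* points lie above the grey ones in both units, and *TUBB3* lies lower in CPM than in TPM.

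*TUBA1B*, which encodes an α-tubulin expressed in most tissues, lies on chr12:49127782-49131397 of GRCh38 on the minus strand. It had 5403, 6214 and 5515 counts in IgG IP replicates 1 to 3 and 12090, 11721 and 10421 counts in IGF2BP3 IP replicates 1 to 3. As normalized CPM these were 586, 416 and 445 against 1015, 885 and 847. All 3 IGF2BP3 IP libraries lay above all 3 IgG IP libraries, and replicate 1 was the highest in either group. The fitted log2 fold change was 0.93 (SE 0.14, 95% confidence interval 0.62 to 1.23), a fold change of 1.90, and it was the value that put the gene past the thresholds, which ask for a fold change of 1.5 or more and an adjusted p (Benjamini-Hochberg) below 0.05 (adjusted p = 0.018, edgeR quasi-likelihood test over the 14507 genes tested). Of the 9 members tested, *TUBA1B* alone was called enriched, where 1.16% of all tested genes were called enriched and none lower, with 1859 genes at an unadjusted p-value under 0.05. The same was seen within each replicate number, with log2 differences of normalized CPM of 0.79, 1.09 and 0.93 for replicates 1 to 3. In TPM the gene had 428, 408 and 454 in IgG IP and 858, 932 and 882 in IGF2BP3 IP, again without overlap. The call held in DESeq2 (0.92, adjusted p = 1.2e-07) and with the replicate number as a block (0.94, adjusted p = 2.2e-11). It also held with replicates 2 and 3 only (1.01, adjusted p = 3.6e-11) and narrowly after a GC correction (0.83, adjusted p = 0.048). These fits use the same libraries and are not separate evidence. The call was lost when any of 4 libraries was left out. The adjusted p was 0.089 when IgG IP replicate 2 was left out and 0.11 when IgG IP replicate 3 was. Leaving out IGF2BP3 IP replicate 2 gave 0.12, and leaving out IGF2BP3 IP replicate 3 gave 0.092, with log2 fold changes of 0.83 to 0.97 in these fits. For scale, *HMGA1*, which encodes a chromatin protein, had the smallest p-value of all genes and a log2 fold change of 1.54 (SE 0.12). *GAPDH*, the glycolytic enzyme often used as a reference, was at 0.66 (SE 0.20) and did not pass the thresholds (adjusted p = 0.21). *GAPDH* was called with the replicate number as a block (adjusted p = 2.1e-09), in DESeq2 (0.65, adjusted p = 0.041) and with replicates 2 and 3 only (0.69, adjusted p = 1.1e-08). After the GC correction it was not called (0.51, adjusted p = 0.47). The mRNA of *IGF2BP3* itself was at -0.04 (SE 0.07).

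*TUBA1A* and *TUBA1C*, the near-identical neighbours of *TUBA1B* on chromosome 12, had smaller log2 fold changes than it, a difference that was not tested. *TUBA1A*, an α-tubulin prominent in neurons (chr12:49184686-49189080, minus strand), had normalized CPM of 331, 346 and 370 in IgG IP and 359, 331 and 373 in IGF2BP3 IP. The groups overlapped, and the log2 fold change was 0.02 (SE 0.08, 95% confidence interval -0.17 to 0.21), an interval that leaves out the fold change of 1.5. Its sign turned under some alternatives. *TUBA1C* (chr12:49188736-49274600, plus strand) had 46.5, 34.5 and 38.6 CPM in IgG IP and 65.2, 50.9 and 49.3 CPM in IGF2BP3 IP. The groups did not overlap, by the narrow margin between IgG IP replicate 1 and IGF2BP3 IP replicate 3. The log2 fold change of 0.47 (SE 0.15) was below the fold change minimum, and the adjusted p was 0.21. Its 95% confidence interval of 0.14 to 0.80 includes the fold change of 1.5. In TPM *TUBA1C* stood at 47.7, 43.3 and 52.3 against 69.9, 78.2 and 72.5, a wider separation.

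Set against each other within a library, where depth cancels, the counts of *TUBA1B* were 1.77, 1.20 and 1.20 times those of *TUBA1A* in IgG IP replicates 1 to 3 and 2.82, 2.67 and 2.27 times in IGF2BP3 IP. The highest IgG IP ratio, in replicate 1, remained below the lowest IGF2BP3 IP ratio. In TPM, which divide the reads of shared stretches among the genes, the same ratio was 2.17, 1.39 and 1.45 against 3.40, 3.03 and 2.62, so the ranges were also apart. Over *TUBA1C* the count ratio of *TUBA1B* was 12.6, 12.1 and 11.5 against 15.6, 17.4 and 17.2. As a share of the counts of the 3 α-tubulin genes, *TUBA1B* made up 60.8%, 52.2% and 52.1% in IgG IP and 70.5%, 69.9% and 66.7% in IGF2BP3 IP, and the 95% Wilson intervals of these shares lay between 51.2% and 61.8% in IgG IP and between 66.0% and 71.2% in IGF2BP3 IP. These intervals are binomial within each library and leave out the spread between replicates. They also take each read as independent, while the reads carry no molecular identifiers, so copies made in amplification would make them too narrow. With the counts of the 3 genes summed to 1 row before the fit, so that reads placed on the wrong copy stay in the row, the log2 fold change was 0.60 (SE 0.10, adjusted p = 0.025). Most counts of the summed row are those of *TUBA1B*, around which the set was built. The value is therefore a description and not separate evidence of enrichment. That sum passed the thresholds in the fit of all libraries and without IgG IP replicate 1, with a log2 fold change of 0.69 there, and not without any of the other 5 libraries, where it was 0.54 to 0.63.

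**Figure D2:**
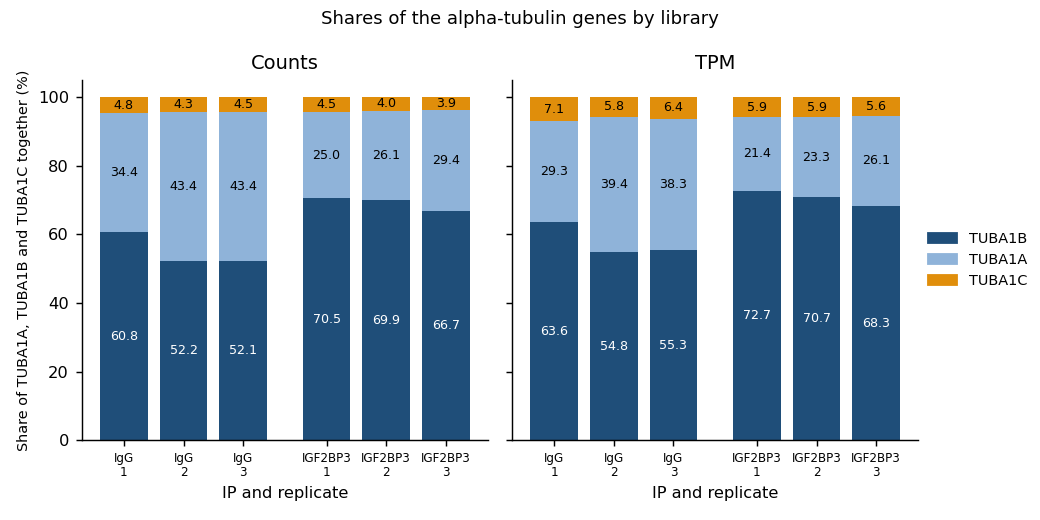
Share in percent that *TUBA1B*, *TUBA1A* and *TUBA1C* take of the 3 genes together in each of the 6 libraries, from counts (left) and from TPM (right); numbers in the bars are the shares. The *TUBA1B* share of counts is 52.1% to 60.8% in the IgG IP libraries and 66.7% to 70.5% in the IGF2BP3 IP libraries.

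None of the 5 β-tubulin genes tested passed the thresholds in edgeR, and DESeq2 called none of them either, giving *TUBB2A* no adjusted p. *TUBB*, the major β-tubulin gene of dividing cells (chr6:30717435-30725538, plus strand), was the member with the most counts, 20138 to 32749 per library. Its normalized CPM were 2183, 2037 and 2139 in IgG IP and 2541, 2474 and 2449 in IGF2BP3 IP. All IGF2BP3 IP libraries lay above all IgG IP libraries by a small margin, and the log2 fold change was 0.23 (SE 0.07, 95% confidence interval 0.06 to 0.40), which leaves out the fold change of 1.5. In TPM the *TUBB* groups overlapped, with 799, 1073 and 1127 in IgG IP and 1101, 1420 and 1344 in IGF2BP3 IP.

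*TUBB4B*, a broadly expressed β-tubulin that is also a main isotype of cilia (chr9:137241287-137243707, plus strand), had 212, 151 and 159 CPM in IgG IP and 256, 160 and 178 CPM in IGF2BP3 IP. Replicate 1 was well above replicates 2 and 3 in both groups, and the groups overlapped. The log2 fold change was 0.19 (SE 0.19), and without IGF2BP3 IP replicate 1 it was -0.04. The pair *TUBB2A* (chr6:3153497-3157544) and *TUBB2B* (chr6:3223324-3231730), both on the minus strand, differed in level. *TUBB2B*, known for its expression in neurons, had 255, 204 and 264 CPM in IgG IP and 237, 242 and 190 CPM in IGF2BP3 IP, with a log2 fold change of -0.11 (SE 0.13). *TUBB2A* had 15 to 22 counts per library and a log2 fold change of -0.02 (SE 0.30), an uncertainty that covers a change of the size seen for *TUBB* in either direction. Summed to 1 row, the pair was at -0.11 (SE 0.13).

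*TUBB3*, the class III β-tubulin used as a marker of neuronal and neuroendocrine differentiation (chr16:89921392-89938761, plus strand), gave opposite signs in the 2 units. It had 74, 86 and 59 counts in IgG IP and 59, 60 and 59 counts in IGF2BP3 IP, which as normalized CPM were 8.02, 5.76 and 4.76 against 4.95, 4.53 and 4.80. The fitted log2 fold change was -0.36 (SE 0.22, 95% confidence interval -0.86 to 0.14), and the groups overlapped. In TPM it had 75.4, 101 and 108 in IgG IP and 109, 121 and 116 in IGF2BP3 IP, without overlap, and a difference of 0.29 (SE 0.16) on the log2(TPM + 1) scale. *TUBB6* (chr18:12307669-12344320, plus strand) had 5, 4 and 6 counts in IgG IP and 4, 8 and 3 in IGF2BP3 IP, with overlap between the groups, and was not tested. A count of 0 would still allow 3 counts in a library, or 0.202 to 0.307 CPM by library total.

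*TUBG1*, the γ-tubulin that nucleates microtubules at centrosomes (chr17:42609641-42615238, plus strand), was second to *TUBA1B* in its log2 fold change. It had 464, 539 and 504 counts in IgG IP and 793, 806 and 775 counts in IGF2BP3 IP. As normalized CPM these were 50.3, 36.1 and 40.7 against 66.6, 60.9 and 63.0, without overlap. The log2 fold change of 0.59 (SE 0.13) lay at the fold change minimum itself, and the gene was not called (adjusted p = 0.068). With the replicate number as a block the log2 fold change was 0.60 (SE 0.08) and the gene was called (adjusted p = 4.9e-06), as were 3.56% of all tested genes in that fit. DESeq2 gave a log2 fold change of 0.58, just under the minimum, with an adjusted p-value of 0.0051, and it called 2.22% of the genes it tested. With replicates 2 and 3 only the log2 fold change was 0.70 and the gene was called, as were 3.18% of genes in that fit, while 0.0545% were lower. After a correction for GC content, which is 57.6% in this transcript, the value was 0.42 without and 0.43 with the block, and the gene was not called in either. The correction alone left 0.566% of genes called. TPM were 32.2, 32.4 and 36.9 against 49.1, 59.8 and 60.1. *TUBG2*, its close copy, had 40 to 66 counts per library and a log2 fold change of 0.17 (SE 0.24).

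Counted over the set, 4 of the 9 members tested (*TUBA1B*, *TUBA1C*, *TUBB* and *TUBG1*) had all IGF2BP3 IP libraries above all IgG IP libraries in normalized CPM, where 12.0% of all tested genes did, and none had them below, where 8.69% of all did. In TPM 5 members (*TUBA1B*, *TUBA1C*, *TUBB3*, *TUBB4B* and *TUBG1*) had all IGF2BP3 IP libraries above, against 9.64% of the tested genes, and none had them below, against 1.07%. The members were chosen with this comparison known, so these counts are a description. The median log2 fold change of the 9 members was 0.19, and that of all tested genes was -0.01.

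**Figure D3:**
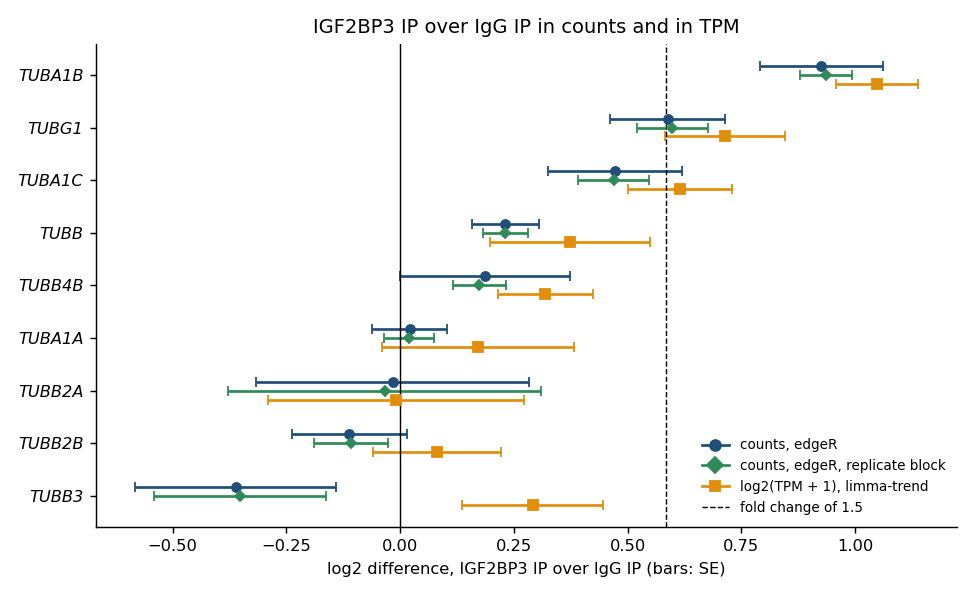
Log2 difference of IGF2BP3 IP over IgG IP for the 9 tubulin genes tested, from counts (edgeR), from counts with the replicate number as a block, and from log2(TPM + 1) (limma-trend), with bars of 1 SE and a dashed line at a fold change of 1.5. *TUBA1B* lies beyond the dashed line in all 3, *TUBG1* on it in counts, and *TUBB3* is at -0.36 in counts and 0.29 in TPM.

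The TPM differences of all genes were shifted, with a median of 0.11 on the log2(TPM + 1) scale, against -0.01 in counts. Relative to that median, the TPM difference was 0.94 for *TUBA1B*, 0.60 for *TUBG1*, 0.50 for *TUBA1C*, 0.26 for *TUBB*, 0.21 for *TUBB4B*, 0.06 for *TUBA1A*, -0.03 for *TUBB2B* and -0.12 for *TUBB2A*. For these 8 genes the 2 units were no further apart than 0.10. For *TUBB3* the value relative to the median was 0.18, which is 0.54 above the value from counts.

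The counts themselves were then set against the counts that the FPKM value and transcript length of each gene stand for, scaled so that the median protein-coding gene is at 1. Across 11864 protein-coding genes the middle quartiles of this ratio ran from 0.742 to 1.19. *TUBA1A* (1.11), *TUBA1B* (0.972), *TUBB4B* (1.09), *TUBG1* (1.09) and *TUBB* (1.20) lay within or at the edge of that range on average over the libraries. *TUBB2B* (0.641), *TUBB2A* (0.537) and *TUBA1C* (0.413) lay below it. Fewer reads were thus counted than their FPKM stand for at the length of the canonical transcript. A shorter transcript in these cells would also lower the ratio, which was not tested. *TUBB3* was far lower, between 0.0351 and 0.0698 in the 6 libraries, and only 0.556% of the genes had a lower ratio. The exons of *TUBB3* are shared over 92.8% of their bases with the readthrough gene *AC092143.1* on the same strand, which joins the upstream gene to *TUBB3* and which had 0 counts in every library. The part of this overlap in the low count of *TUBB3* was not tested. For *TUBB6*, with 3 to 8 counts, the ratio ran from 0.527 to 2.09.

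**Figure D4:**
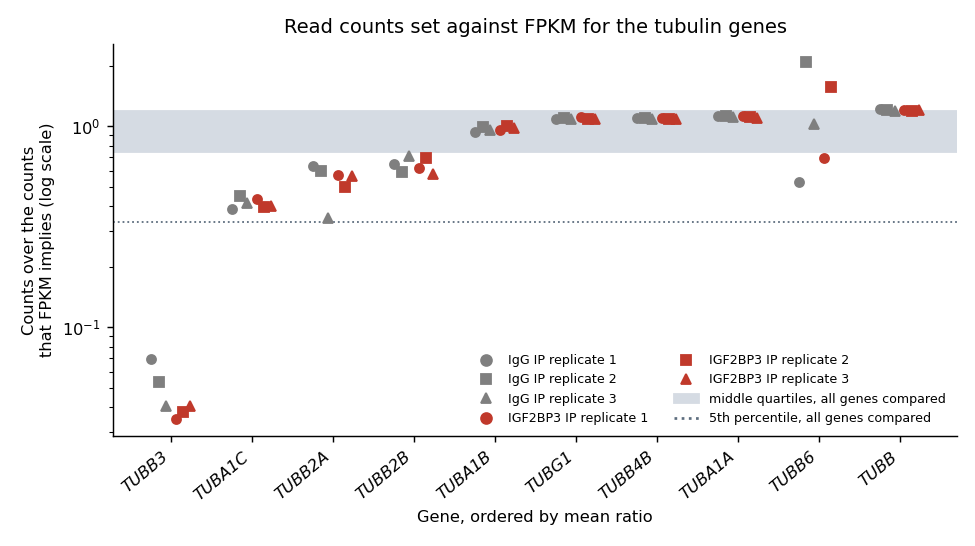
Counts divided by the counts that FPKM and transcript length imply, on a log axis, for the 10 tubulin genes in each library, with the median protein-coding gene at 1. The grey band spans the middle quartiles (0.742 to 1.19) and the dotted line is the 5th percentile (0.332) of 11864 genes; *TUBB3* lies below 0.07 in all libraries, and *TUBB6* has no value in the library where its FPKM is 0.

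Some members also overlap genes on the other strand, and whether the counting used the strand is not given in the sources used here, so the reads of such partners cannot be told apart. Over 72.6% of its exon bases *TUBA1B* overlaps an antisense lncRNA listed as *AC011603.2* (*TUBA1B-AS1* in GENCODE version 44). That gene had 71, 129 and 79 counts in IgG IP and 224, 158 and 165 in IGF2BP3 IP, far below the counts of *TUBA1B* in the same libraries. Its log2 fold change was 0.95 (adjusted p = 0.069, not called), and it was called with the replicate number as a block (0.92, adjusted p = 7.9e-05) and in DESeq2 (0.94, adjusted p = 0.0057). *TUBB* overlaps the antisense lncRNA *AL662797.1* over 21.4% of its exon bases, which had 66 to 179 counts and a log2 fold change of 0.70 (adjusted p = 0.23), and was called with the block (0.69, adjusted p = 0.0037). *TUBA1C* overlaps *AC125611.3* over 23.6%, with 1 to 6 counts, and *TUBA1A* overlaps *TUBA1C* over 6.2%. *TUBB4B* overlaps *FAM166A* over 7.9% and *TUBG1* overlaps *RETREG3* over 6.2%. The table also lists 51 tubulin pseudogenes, of which 14 had any count and 3 were tested. Their summed counts were 165 to 281 per library, most of them from *TUBBP5*, with 125 to 211, and *TUBBP1*, the pseudogene that shares windows with *TUBB*, had 3 to 30.

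Other genes of microtubule biology were read from the same fit, in lists chosen by function. None of their genes passed the thresholds in the edgeR fit with condition only or in DESeq2. Among the 13 other tubulin genes, 6 were tested, 3 of them higher and 3 lower in IGF2BP3 IP, with a median log2 fold change of -0.05. None had an unadjusted p-value under 0.05, which 1859 of all 14507 tested genes had in either direction. *TUBA4A*, an α-tubulin abundant in platelets and neurons, was at 0.21 (SE 0.11), *TUBG2* followed, and *TUBB8*, the β-tubulin of oocytes, was lowest at -0.70 (SE 0.66) on 2 to 24 counts. *TUBA3C*, *TUBA3E*, *TUBAL3* and *TUBB4A* had 0 counts in all libraries.

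The 9 partners of γ-tubulin in its ring complex were all tested, and their values fell on either side of 0, 3 higher and 6 lower, with a median of -0.09. *TUBGCP4* (0.51, SE 0.11) and *TUBGCP6* (0.45, SE 0.17), which are structural GCP proteins of the ring, were highest, and *MZT1*, a small protein that binds GCP proteins, was lowest (-0.27, SE 0.09). After the GC correction *MZT1* was at -0.09 and no longer lowest, *TUBGCP6* was at 0.24 and *TUBGCP4* at 0.51. An unadjusted p-value under 0.05 was reached by 4 of the 9, among them *MZT1*, which was lower. Of all 14507 tested genes 1859 reached it, in either direction. The thresholds were passed by none of the 9. In normalized CPM 3 of the 9 had all IGF2BP3 IP libraries above all IgG IP libraries, where 12.0% of all tested genes did. Another 2 had them below, where 8.69% of all did.

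Tubulin folding needs the chaperonin CCT, prefoldin and the tubulin cofactors. All 21 genes of this group were tested, 5 higher and 16 lower, with a median of -0.10. An unadjusted p-value under 0.05 was reached by 3 of them, where 1859 of all 14507 tested genes reached it. The highest were *TBCD* (0.55, SE 0.14), the cofactor that binds β-tubulin, and *ARL2* (0.40, SE 0.24), the small GTPase that works with it. *TBCA*, another β-tubulin cofactor, was lowest (-0.25, SE 0.11). Of the 12 genes of tubulin mRNA autoregulation, the factor *TTC5* was at 0.03 (SE 0.09) and its partner *SCAPER* at -0.03 (SE 0.14). The rest encode the CCR4-NOT complex, which removes poly(A) tails, with *CNOT3* (0.44, SE 0.17) and *CNOT1* (0.29, SE 0.11) highest and *CNOT7* lowest (-0.18, SE 0.12). The median of the 12 was -0.06, and 2 had an unadjusted p-value under 0.05.

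Enzymes that modify tubulin, such as tyrosine ligases, glutamylases and deacetylases, were tested for 20 of 22 genes. Of these, 13 were higher and 7 lower, with a median of 0.16 and 4 at an unadjusted p-value under 0.05. *TTLL4*, a glutamylase, was highest at 0.67 (SE 0.19, adjusted p = 0.17), and with the replicate number as a block it passed the thresholds (adjusted p = 0.0002). *SIRT2*, a tubulin deacetylase, was at 0.36 (SE 0.12), and *TTLL3*, a glycylase, was lowest at -0.26 (SE 0.25). Of 33 microtubule-binding proteins 30 were tested, 23 higher and 7 lower, with a median of 0.14 and 7 at an unadjusted p-value under 0.05. *CLIP2*, which tracks growing plus ends, was highest at 0.67 (SE 0.24, adjusted p = 0.29) and passed the thresholds with the block (adjusted p = 0.0017). *MAP1A*, a neuronal microtubule-associated protein, was at 0.58 (SE 0.26). *STMN1*, which sequesters tubulin dimers and was the most abundant of this list at 13853 to 23323 counts, was lowest at -0.13 (SE 0.08). Of all 14507 tested genes 7091 (48.9%) were higher and 7416 lower, and 1859 had an unadjusted p-value under 0.05.

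**Figure D5:**
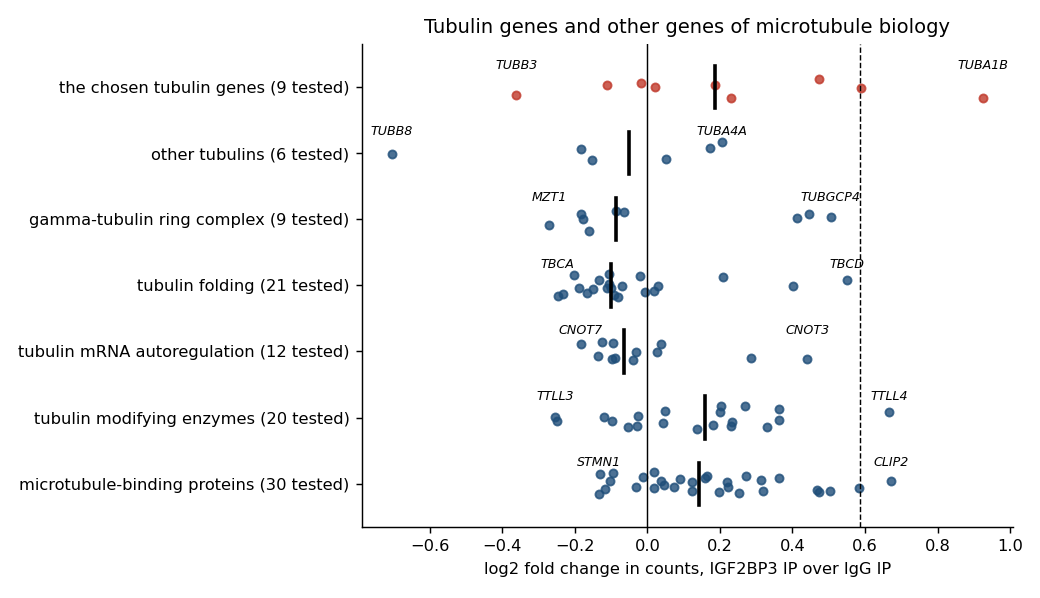
Log2 fold change in counts, IGF2BP3 IP over IgG IP (edgeR), of each tested gene in the set and in 6 lists of microtubule biology, each point a gene and each black bar the median, with the highest and the lowest gene named and a dashed line at a fold change of 1.5. *TUBA1B* at 0.93 lies farthest to the right, and the medians of the lists run from -0.10 to 0.16.

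The genes whose normalized log2 CPM followed *TUBA1B* most closely over the 6 libraries, among 8944 genes with a mean of at least 10 CPM, were *ALMS1*, *ALDH6A1*, *PPP1CA*, *ZNF620* and *RALGPS1*, with Pearson correlations of 0.989 to 0.995. The 6 points are 2 groups that do not overlap for any of these genes, so the correlation holds the group difference and the position of replicate 1 together. Their log2 fold changes were 0.36 to 0.81, all smaller than that of *TUBA1B*. *ALMS1* (0.63, SE 0.12) and *RALGPS1* (0.81, SE 0.13) were called enriched, and *PPP1CA* (0.54, SE 0.12), *ALDH6A1* (0.37, SE 0.08) and *ZNF620* (0.36, SE 0.08) were not.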

How the data were processed

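The 6 RIP-seq libraries of WaGa cells, from IP with IgG or with an IGF2BP3 antibody (3 each), were grouped by the sample labels. Per the methods, the authors aligned 150 bp paired-end reads to GRCh38 with STAR 2.7.9a, quantified with RSEM and GENCODE version 37, and called RNAs with DESeq2. The authors deposited a table of raw, whole-number counts by gene. The TPM and FPKM tables they deposited beside it are RSEM estimates, in which shared reads are divided among genes. The program behind the counts and its use of strand are not given in the sources used here. Replicates were stated to be independent.

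After filterByExpr and TMM normalization, counts were fitted with condition only by the quasi-likelihood test of edgeR 4.0.16 in R 4.3.3 over all 14507 genes that passed, with thresholds of fold change 1.5 and Benjamini-Hochberg adjusted p 0.05. SE is the log2 fold change over the root of its F statistic. Alternatives were DESeq2 1.42.0 (independent filtering at 0.1), RLE factors, library totals, other filters (at least 1 count in all, or 10 in every library), limma-trend on TPM with limma 3.58.1 and a pseudocount of 1 or 0.1 before log2, loess GC correction (span 0.5), no fold change minimum, a replicate block, and leaving out libraries. A term for replicate 1 and the GC correction with the block were chosen after seeing the data. Across genes, the deviations of same-numbered libraries from the mean of their group correlated at 0.553, 0.264 and 0.222. Replicates 2 and 3 crossed at 0.266 and 0.259, and replicate 1 crossed with them at -0.353 to -0.401. The numbers, taken from the labels, were treated as pairs only in the block fits and in the differences within a replicate number. The main fit did not use them.

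Loci, overlaps, GC content and sequences came from canonical transcripts of GENCODE version 44 on GRCh38 (Python 3.11.15, Biopython 1.88). Transcript length stood in for effective length. The coding ends of the α-tubulin genes are not reported here. Named were the 10 members, genes overlapping them, tubulin pseudogenes, per list the genes past the thresholds or else the 2 largest and the smallest log2 fold change, the 5 genes most correlated with *TUBA1B*, and *IGF2BP3*, *GAPDH* and *HMGA1*. *TTC5*, *SCAPER* and genes at 0 counts were named after their values were seen. The members and lists were chosen with earlier results of these data known.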

Additional observations from a re-analysis of the deposited data

How the results depend on the processing

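*TUBA1B* stayed higher in IGF2BP3 IP in all fits, with log2 fold changes of 0.83 to 1.09 over the fits without 1 library. It lost its call in limma-trend on log2(TPM + 1) (1.05, adjusted p = 0.17) and log2(TPM + 0.1) (1.05, adjusted p = 0.22) and without IgG replicate 2 or 3 or IGF2BP3 replicate 2 or 3. *TUBA1A*, *TUBA1B* and *TUBA1C* summed ran from 0.54 to 0.69 over the fits without 1 library. With the replicate block the sum was at 0.61, *TUBA1B* at 0.94 and *TUBG1* at 0.60; among the members the block changed the call of *TUBG1* only, which was also called by library totals (0.63), without IgG replicate 1 (0.73), with replicates 2 and 3 only (0.70) and with a term for replicate 1 (0.60).

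Against 169 enriched and 0 lower genes in the main setting, there were 281 enriched with DESeq2, 359 and 1 lower with no filter, 0 with either TPM scale, 82 with GC correction, 268 and 35 lower with GC correction and replicate block, 517 and 15 lower with the replicate block, 466 and 8 lower with replicates 2 and 3 only, 537 and 23 lower with the replicate 1 term, and 0 to 244 when 1 library was left out. The 0 came without IGF2BP3 replicate 2, with 7 without IgG replicate 3, 19 without IgG replicate 2 and 23 without IGF2BP3 replicate 3. Unadjusted p-values under 0.05 numbered 926 on log2(TPM + 1), 874 on log2(TPM + 0.1) and 1342 without IGF2BP3 replicate 2. Enriched genes of the γ-tubulin ring complex list numbered 0 to 1 without 1 library. The modifying enzymes had 1 enriched with no filter, with the block, with replicates 2 and 3 only and with the replicate 1 term, and the microtubule-binding proteins 1 with the last 3 of these. By counts per kilobase 6 members kept their rank.

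Small values turned sign, none past the thresholds. *TUBA1A* was at -0.054 with GC correction (-0.055 with the block), -0.023 with replicates 2 and 3 only, and from -0.030 to 0.069 without 1 library. *TUBB2A* was at 0.022 with library totals, 0.013 on log2(TPM + 0.1) and from -0.19 to 0.062 without 1 library. On log2(TPM + 1) and log2(TPM + 0.1), *TUBB2B* was at 0.081 and 0.082 and *TUBB3* at 0.29 and 0.29. *TUBB4B* was at -0.0035 with GC correction, -0.013 with the block added and from -0.040 to 0.36 without 1 library. Low counts limit *TUBB2A*, *TUBB3* and *TUBB6*, with under 100 in every library; *TUBB3* was low in counts only, not in TPM.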
